A study of Mus musculus with 20 samples.

Results

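The 10 genes examined here, Scd1, Scd3, Elovl3, Elovl6, Fasn, Acaca, Soat1, Far2, Dgat2 and Cidea, encode enzymes and a droplet protein that make the lipid of sebum. They were chosen by name, though with earlier results of these data known, and all 10 were found among the 22090 genes of the count table. RNA-seq was performed on 20 pieces of skin from 8 female hairless SKH-1 mice, an outbred strain without a coat, aged 7 months by the labels. The study's methods give this age at the start, before weeks of irradiation, so that the mice were older when the skin was taken. The mice formed 2 arms of 4, unirradiated or exposed to ultraviolet radiation (UVR), and the groups by pathology were normal skin (NS, n = 8), actinic keratosis, the precancerous lesion (AK, n = 8), and cutaneous squamous cell carcinoma (cSCC, n = 4). All AK and cSCC tissues came from UVR mice, whereas NS held both arms, and the labels do not say which NS piece was irradiated. By the study's methods the 8 AK came from 4 mice as grade 1 and grade 2 lesions, and the labels tie no piece to a mouse, so that the p-values below treat pieces as independent when some share an animal. Samples are named by group and by the number in their label.

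The sebaceous gland is an appendage of the hair follicle whose cells fill with lipid droplets, burst and release their content as sebum. Fatty acids are built from acetyl-CoA by Acaca and Fasn, lengthened by the Elovl enzymes and given a double bond by the Scd enzymes. They then leave as wax esters, for which Far2 supplies the fatty alcohol, as sterol esters (Soat1) or as triglycerides (Dgat2), and are stored in droplets with proteins such as Cidea. Several of these genes are also used by adipocytes, which lie beneath the dermis, and by liver or heart.

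The deposited counts summed to between 775750 and 14055206 per sample, and levels are given as CPM, counts relative to library size, with TMM factors that correct the size for composition. A count of 3, the least taken as detectable, was worth up to 3.78 CPM, in AK 12. The epidermal keratins Krt5 and Krt14 were present in all 20 libraries, at no less than 624 and 2917 CPM. In 2 libraries, genes of other organs stood apart. The library labelled cSCC 21 held 48296 CPM of 7 heart genes such as Myh6 and Actc1, where no other library passed 140 CPM, and the library labelled cSCC 20 held 35921 CPM of 7 lung genes such as Sftpc, where no other passed 59.3 CPM. The sum of 14 adipocyte markers was also high in both, at 3884 CPM in cSCC 20 (Adipoq 179 CPM) and 6366 CPM in cSCC 21, of which 5666 CPM was Lpl, a gene of heart muscle too, while Adipoq was at 0.662 CPM. In cSCC 18 and cSCC 19 that sum was 483 and 221 CPM, below every NS and AK library (684 to 5247 CPM). The sum of 9 epidermis markers was 5404 CPM in cSCC 20 and 3806 CPM in cSCC 21, against 9652 CPM or more in all other libraries. Results with cSCC are therefore given with all 4 libraries and without cSCC 20 and cSCC 21. The latter rest on cSCC 18 and cSCC 19 alone. The TMM factor of cSCC 18 was 0.509, against 0.852 to 1.22 in all other libraries, so that its CPM were scaled up the most. These are pieces of whole skin, where fewer sebaceous cells and less RNA per cell cannot be told apart.

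**Figure D1:**
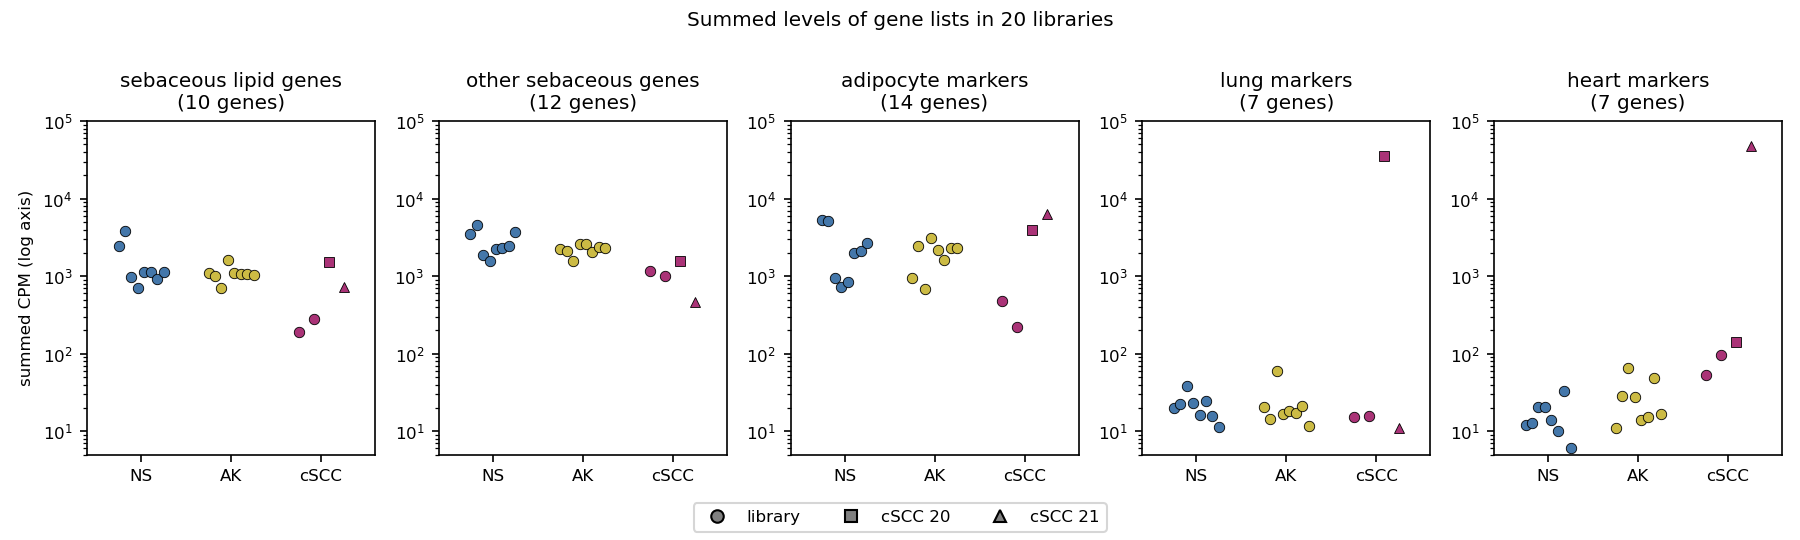
Summed CPM (log axis) of the 10 sebaceous lipid genes, 12 other sebaceous genes, and adipocyte, lung and heart markers. Each point is 1 library, with cSCC 20 as a square and cSCC 21 as a triangle. The square is at 35921 CPM for lung markers and the triangle at 48296 CPM for heart markers, and the other sebaceous genes summed to 470 to 1588 CPM in cSCC.

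Far2, Elovl3 and Elovl6 were lower in cSCC than in NS and AK, with no overlap between the groups. For Elovl6 the gap to AK was narrow, at 45.5 CPM in cSCC 20 against 46.7 CPM in AK 12. Elovl6 and Dgat2 were lower in AK than in NS, by about 2-fold, with overlap. Fasn and Soat1 did not pass the test in any comparison, and the calls or directions of Scd1, Dgat2, Cidea, Acaca and Scd3 depended on which cSCC libraries were included. Genes were called with an adjusted p-value under 0.05 from edgeR's quasi-likelihood test and a fold change above 1.5 or below 0.67. For AK vs. NS, 2 of 10 were called lower, beside 2.38% of the 11677 genes tested, and none was called higher (2.26% of all genes). For cSCC vs. NS, 3 of 10 were called lower, beside 7.65% of 12097 genes, and for cSCC vs. AK again 3 of 10, beside 8.34% of 12032 genes. Without cSCC 20 and cSCC 21 the counts were 6 of 10 against NS (6.46% of all genes) and 5 of 10 against AK (5.90%). No member was called higher in these fits, beside 11.7% of all genes against NS and 16% against AK, or 5.74% and 6.71% without both libraries, nor was any by DESeq2 or limma voom with all libraries. DESeq2 called 430 of 17761 genes higher and 630 lower in AK vs. NS. In cSCC vs. NS it called 1581 and 1238 of 17710, and in cSCC vs. AK 2192 and 1249 of 17646. For limma voom the counts were 521 and 522 of 11677, 768 and 540 of 12097, and 726 and 544 of 12032. At an unadjusted p under 0.05 by edgeR, 0 members were higher in AK vs. NS and cSCC vs. NS and 1, Dgat2, in cSCC vs. AK. No share of all genes is given at that limit. The groups did not overlap for 0 members in AK vs. NS and for 3 in either comparison with cSCC, beside 0.128%, 5.73% and 6.84% of all genes with the later group lower.

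The median log2 fold change of the 10 genes was -0.58 for AK vs. NS, -1.08 for cSCC vs. NS and -0.64 for cSCC vs. AK, beside medians over all genes tested of -0.04, 0.14 and 0.17. Without cSCC 20 and cSCC 21 the medians were -2.24 against NS and -1.35 against AK, beside -0.06 and -0.01 over all genes. Scaling by library size alone lowered the median of all genes by 0.31 in cSCC vs. NS and by 0.26 in cSCC vs. AK, and turned the calls over all genes from 1414 higher and 926 lower to 625 and 1332 in the first and from 1931 and 1004 to 1021 and 1356 in the second. In AK vs. NS the split went from 264 higher and 278 lower to 176 and 481, and to 190 and 391 with upper quartile factors. Fasn in cSCC vs. NS was the one member whose direction changed with library size alone.

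**Figure D2:**
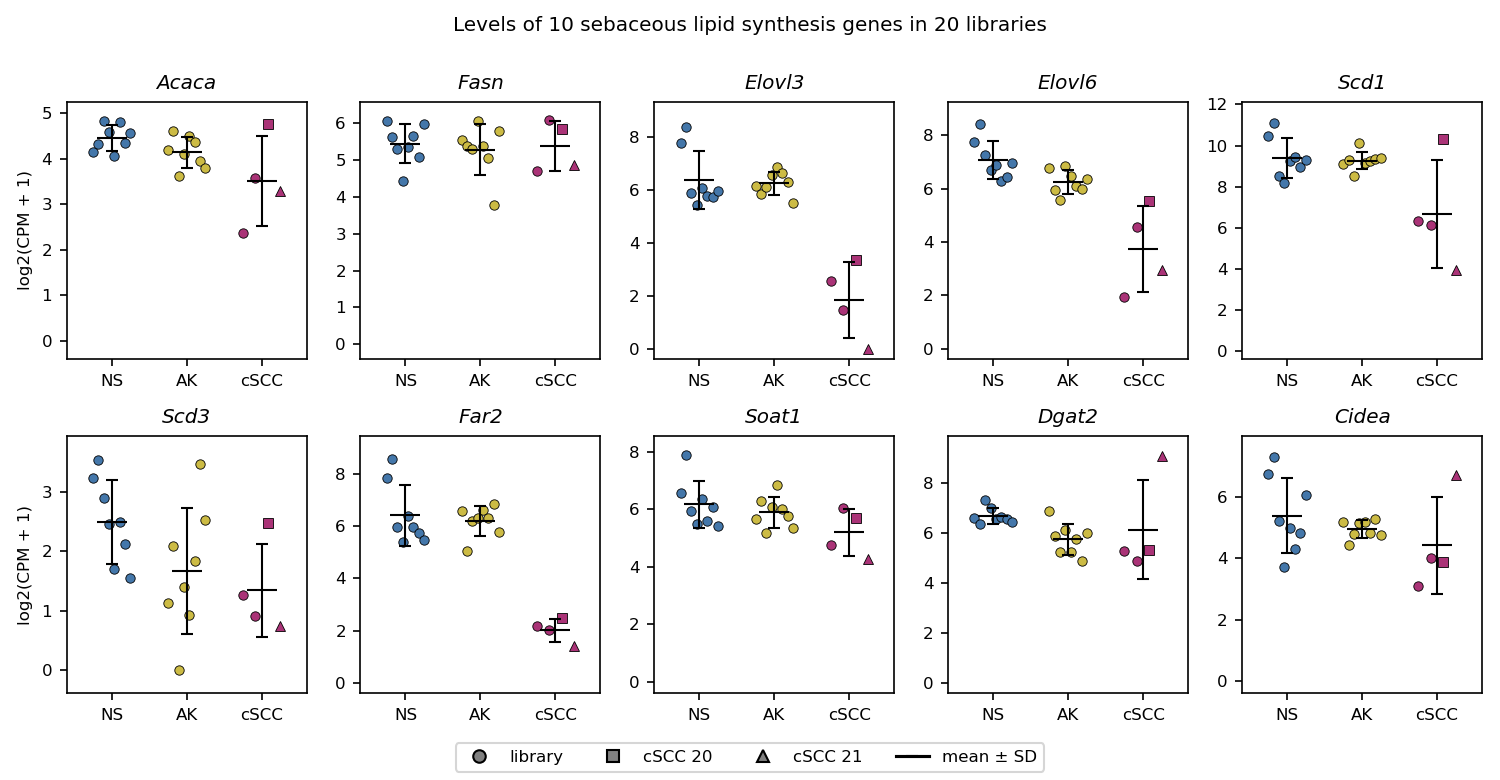
Level of each gene as log2(CPM + 1) in NS, AK and cSCC, with 1 point per library and the mean ± SD of the log values in black. The 4 cSCC points of Far2, Elovl3 and Elovl6 lie below all NS and AK points, and for Dgat2 the triangle, cSCC 21, lies above all other points.

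Per kilobase of exon, Scd1 was the most abundant of the genes in NS, with a median of 125 CPM per kb, followed by Dgat2 (31.1), Elovl3 (30.0), Cidea (29.9), Elovl6 (18.6), Far2 (8.37), Soat1 (6.52), Fasn (4.00), Scd3 (1.28) and Acaca (1.23). Scd1 was also first in AK, at 127 CPM per kb. The range of Scd1 did not overlap that of the next gene in either group, whereas the other 8 neighbouring pairs overlapped in each. In cSCC, Scd1 had a median of 15.1 CPM per kb and overlapped with the next gene, Cidea (12.8), and Far2 moved from the sixth place to the ninth at 0.448 CPM per kb.

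Acaca, acetyl-CoA carboxylase, makes the malonyl-CoA from which fatty acids are built. It ranged from 15.8 to 27.5 CPM in NS (median 20.97) and from 11.4 to 23.4 CPM in AK (median 16.7). In cSCC it was at 4.17, 10.99, 26.2 and 8.77 CPM in cSCC 18, 19, 20 and 21. All but cSCC 20 were below the lowest NS library. The log2 fold change was -0.33 for AK vs. NS (SE 0.19, adjusted p = 0.291) and -0.76 for cSCC vs. NS (SE 0.41, adjusted p = 0.212). With cSCC 20 and cSCC 21 left out, Acaca was called lower against NS, at -1.43 (SE 0.42, adjusted p = 0.0443), and likewise without cSCC 20 alone (-1.36, adjusted p = 0.0218).

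Fasn, fatty acid synthase, builds palmitate. It was at 20.2 to 65.5 CPM in NS (median 43.8), 12.6 to 64.8 CPM in AK (median 40.4), and 25.01, 66.8, 55.7 and 28.1 CPM in the 4 cSCC libraries. The 3 groups overlapped over nearly their whole ranges. Its log2 fold change was -0.13 for AK vs. NS, with a 95% interval of -0.68 to 0.41, and 0.04 for cSCC vs. NS, with an interval of -0.71 to 0.78. With both libraries left out the value against NS was 0.09, with an interval of -0.83 to 1.01; its sign changed when single libraries were left out.

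Elovl6 lengthens palmitate to stearate. Its NS levels ranged from 76.4 to 341 CPM with a median of 120 CPM, and its AK levels from 46.7 to 115 CPM with a median of 73.6 CPM. The cSCC libraries held 2.78, 22.8, 45.5 and 6.78 CPM. All 4 were below the lowest AK and NS library, the nearest being cSCC 20, and AK overlapped with the lower part of NS. Elovl6 had 40 counts of a total of 775750 in cSCC 20, and 37 of 867219 in AK 12, the lowest AK library. The order of these libraries thus rests on their TMM factors (1.133 and 0.9143). Elovl6 was lower in AK than in NS by 1.96-fold (log2 fold change -0.97, SE 0.28, adjusted p = 0.0490). This call was lost on leaving out NS 1 (adjusted p = 0.0904) or NS 2 (-0.68, adjusted p = 0.0918), the 2 NS libraries with the most Elovl6, and with 10 other libraries. It was lower in cSCC than in NS by 7.74-fold (-2.95, SE 0.67, adjusted p = 0.00920) and than in AK by 3.90-fold (-1.96, SE 0.55, adjusted p = 0.0194). From cSCC 18 and cSCC 19 alone these values were -3.48 (adjusted p = 0.0158) and -2.46 (adjusted p = 0.0132).

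Elovl3 makes very long saturated and monounsaturated fatty acids in sebaceous glands. It ranged from 42.1 to 331 CPM in NS (median 59.2) and from 44.3 to 116 CPM in AK (median 73.6). In cSCC 18, 19, 20 and 21 it was at 4.86, 1.76, 9.10 and 0 CPM, from 7, 4, 8 and 0 counts, where 3 counts in cSCC 21 would be 0.496 CPM. The cSCC levels were thus well under all others, in a range set by few counts. The log2 fold change was -0.52 for AK vs. NS (SE 0.40, adjusted p = 0.433), -5.10 for cSCC vs. NS (SE 1.05, adjusted p = 0.00616), or 34.2-fold lower, and -4.59 for cSCC vs. AK (SE 0.76, adjusted p = 0.00242). With limma voom the call of Elovl3 against NS was lost (-4.99, adjusted p = 0.0630). From cSCC 18 and cSCC 19 alone it was -5.10 against NS (adjusted p = 0.0151) and -4.57 against AK (adjusted p = 0.00116). On the opposite strand its locus, at chr19:46131897-46135694 in GRCm38, overlaps Pitx3, and the strand used in counting is not given in the sources used here.

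Scd1, stearoyl-CoA desaturase 1, makes oleate and palmitoleate. Its NS levels ranged from 291 to 2185 CPM with a median of 611 CPM, and those in AK from 367 to 1097 CPM with a median of 621 CPM. The cSCC libraries held 79.2, 68.5, 1259.5 and 14.6 CPM. All but cSCC 20 were below every NS and AK library, and cSCC 20 was above all but 2 NS libraries. The log2 fold change was -0.40 for AK vs. NS (SE 0.35, adjusted p = 0.500), -1.14 for cSCC vs. NS (SE 0.94, adjusted p = 0.416) and -0.75 for cSCC vs. AK (SE 0.81, adjusted p = 0.526). Without cSCC 20 alone, Scd1 was called lower at -3.92 against NS (adjusted p = 0.00733) and -3.50 against AK (adjusted p = 0.00211). Leaving out both, it was 11.1-fold lower than in NS (-3.47, adjusted p = 0.0184) and 8.32-fold lower than in AK (-3.06, adjusted p = 0.00130). The adipocyte marker Cfd, at 977 CPM in cSCC 20, was at 5.56, 6.15 and 1.65 CPM in cSCC 18, 19 and 21, and the part of adipose RNA in the Scd1 level of cSCC 20 was not tested.

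Scd3, a desaturase gene of the same cluster on chromosome 19, was at the edge of detection. It had 4 to 48 counts in NS (1.91 to 10.7 CPM), 0 to 21 counts in AK (0 to 10.2 CPM) and 2, 2, 4 and 4 counts in the 4 cSCC libraries (1.39, 0.879, 4.55 and 0.662 CPM). Its levels overlapped in all groups. With all libraries no comparison called it by edgeR, and the log2 fold change of Scd3 for cSCC vs. NS was -1.69 (SE 0.72, adjusted p = 0.112). Without cSCC 20 it was called lower against NS (-2.47, adjusted p = 0.0357), as it was by the study's unadjusted rule (-1.16, unadjusted p = 0.0272), and it was not called without both libraries (-2.21, adjusted p = 0.124). The coding sequences of Scd3 and Scd1 were identical at 91.5% of 1068 aligned bases, and 36 of the 3340 windows of 150 bases, the read length, in the Scd3 transcript were also found in Scd1. The longest run shared by both transcripts was 185 bases. Only reads from such shared windows match the 2 genes exactly, and how the counting handled them is not given in the sources used here. The last 90 coding bases of each (positions 979 to 1068 of the Scd1 and 991 to 1080 of the Scd3 open reading frame, from GENCODE transcripts of GRCm38) are shown because reads are told apart there by 5 bases, given in capitals.
Scd1: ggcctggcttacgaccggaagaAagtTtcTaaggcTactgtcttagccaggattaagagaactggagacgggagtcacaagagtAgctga
Scd3: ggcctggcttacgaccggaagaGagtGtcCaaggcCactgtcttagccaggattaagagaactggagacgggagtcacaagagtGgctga

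Far2, fatty acyl-CoA reductase 2, makes the fatty alcohols of wax esters and had the lowest cSCC levels relative to NS. It ranged from 40.7 to 377 CPM in NS (median 61.2) and from 31.6 to 115 CPM in AK (median 78.1). The cSCC libraries held 3.47, 3.08, 4.55 and 1.65 CPM, from 5, 7, 4 and 10 counts. All 4 lay close together and far under the lowest NS and AK library. They include cSCC 20 and cSCC 21, which also had the lowest sums of epidermis markers. The part of tissue content in their Far2 levels was not tested. The log2 fold change was -0.63 for AK vs. NS (SE 0.43, adjusted p = 0.379). For cSCC vs. NS it was -5.27 (SE 0.83, adjusted p = 0.00171), or 38.6-fold lower, a call of Far2 that was lost with limma voom (-4.46, adjusted p = 0.0997), and for cSCC vs. AK -4.61 (SE 0.43, adjusted p = 3.24e-04), or 24.5-fold lower. Leaving out cSCC 20 and cSCC 21, it was -5.14 against NS (adjusted p = 0.0169) and -4.49 against AK (adjusted p = 0.00130). Its locus (chr6:148047259-148182758, GRCm38, plus strand) overlaps Far2os1, Far2os2 and Ergic2 on the other strand. If strand was not used, reads from any exon bases shared with these genes could not be told apart. The loci of Scd3, Elovl6, Acaca, Soat1 and Cidea also overlap genes on the other strand. Overlaps were taken between whole loci, introns included, and overlap of exons was not examined. On the same strand Elovl6 overlaps Gm43072 and Acaca overlaps Gm37391.

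**Figure D3:**
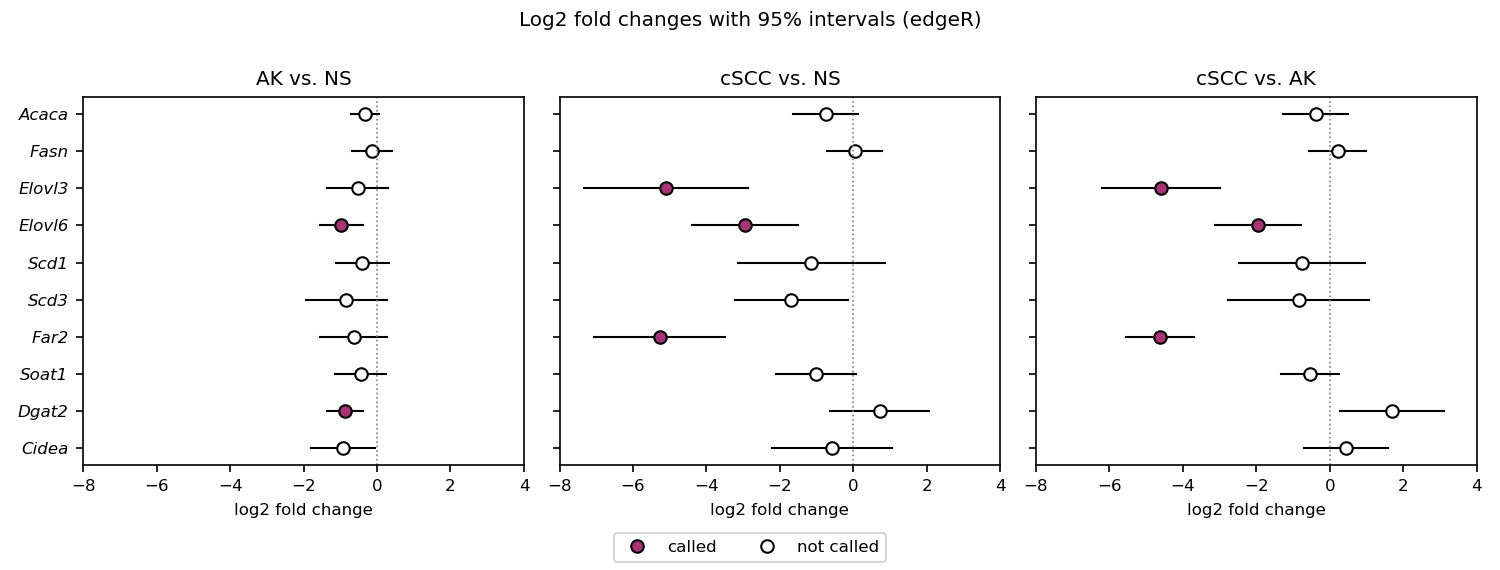
Log2 fold change of each gene with its 95% interval from edgeR for AK vs. NS and for cSCC against NS and against AK. Filled points are called genes. Far2 and Elovl3 are below -4 in both comparisons with cSCC, and Elovl6 is filled in all 3 panels.

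Of the 10 genes, 6 had a promoter in the RefSeq table of GRCm38.p6 (Acaca, Elovl6, Far2, Fasn, Scd3 and Soat1), taken as 250 bases before to 50 after the start. Those of Far2 and Elovl6, which were lower in all cSCC libraries, and of Fasn, which was not, are printed 5′ to 3′ along the gene, with matches to a CCAAT box or a GC box (GGGCGG), either strand, in capitals.
Far2 (chr6:148047166-148047465, plus strand): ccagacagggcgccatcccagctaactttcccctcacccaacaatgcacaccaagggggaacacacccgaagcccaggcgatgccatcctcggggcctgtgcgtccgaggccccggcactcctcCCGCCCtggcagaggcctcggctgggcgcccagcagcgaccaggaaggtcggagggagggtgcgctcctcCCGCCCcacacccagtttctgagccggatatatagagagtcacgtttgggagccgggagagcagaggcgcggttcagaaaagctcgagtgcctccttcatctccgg
Elovl6 (chr3:129532136-129532435, plus strand): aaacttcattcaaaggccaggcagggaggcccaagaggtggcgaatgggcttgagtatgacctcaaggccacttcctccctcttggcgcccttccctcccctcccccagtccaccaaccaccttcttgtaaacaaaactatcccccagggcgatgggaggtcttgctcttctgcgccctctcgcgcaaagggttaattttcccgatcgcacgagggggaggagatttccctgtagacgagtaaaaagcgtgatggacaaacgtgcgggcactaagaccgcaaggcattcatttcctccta
Fasn (chr11:120824498-120824797, minus strand): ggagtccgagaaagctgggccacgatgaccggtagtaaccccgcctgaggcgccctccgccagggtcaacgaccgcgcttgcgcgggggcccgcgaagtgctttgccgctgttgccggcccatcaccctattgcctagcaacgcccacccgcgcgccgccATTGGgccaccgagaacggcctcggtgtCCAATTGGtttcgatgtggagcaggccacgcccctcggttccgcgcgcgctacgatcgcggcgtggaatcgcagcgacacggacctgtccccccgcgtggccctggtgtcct

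The Far2 window held 2 GC boxes, 126 and 56 bases before the start, the Fasn window 3 CCAAT boxes, 90, 62 and 59 bases before it, of which the last pair overlap on opposite strands, and the Elovl6 window neither motif. Among all 32851 promoters of the table, 37.4% held CCAAT and 35.7% held GGGCGG. Also searched on both strands were the E-box CACGTG (7.15% of promoters), the ROR half-site TAGGTCA (2.61%), a sterol element TCACNCCAC (1.24%), and direct repeats of the nuclear receptor half-site with 1 base (DR1, 0.0396%) or 4 bases (DR4, 0.0152%) between them. None of the 6 promoters held one of these.

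Soat1 esterifies cholesterol. It was at 41.7 to 236 CPM in NS (median 63.8), 35.3 to 113 CPM in AK (median 59.1) and 26.4, 65.5, 51.2 and 18.2 CPM in the 4 cSCC libraries. The groups overlapped, and cSCC 18 and cSCC 21 were below all other libraries. The log2 fold change was -0.44 for AK vs. NS (SE 0.33, adjusted p = 0.427), -1.01 for cSCC vs. NS (SE 0.51, adjusted p = 0.176) and -0.54 for cSCC vs. AK (SE 0.38, adjusted p = 0.312). Leaving out both libraries, it was -0.83 against NS, with an interval of -2.20 to 0.54.

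Dgat2 catalyses the last step of triglyceride synthesis. It ranged from 82.6 to 162 CPM in NS (median 95.8) and from 28.8 to 118 CPM in AK (median 55.3). It was the member with the least spread in NS beside Acaca, and 7 of 8 AK libraries were below all of NS. In AK it was lower by 1.82-fold (log2 fold change -0.87, SE 0.23, adjusted p = 0.0385), a call that was lost on leaving out any of 11 of the 16 libraries, though the value stayed between -1.09 and -0.75. The cSCC libraries held 38.2, 28.6, 38.7 and 543 CPM. All but cSCC 21 were below all of NS, and cSCC 21, with the heart genes, was above all other libraries. For cSCC vs. NS the log2 fold change was 0.71 (SE 0.63, adjusted p = 0.456) with all libraries and -1.54 without cSCC 21 (adjusted p = 0.00317). Without cSCC 20 as well it was -1.64, or 3.11-fold lower (SE 0.33, adjusted p = 0.00918). For cSCC vs. AK it was 1.70 (SE 0.66, adjusted p = 0.0735) with all libraries and -0.75 (SE 0.44, adjusted p = 0.281) without both.

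Cidea, a protein of the lipid droplet surface, is on chromosome 18. It ranged from 12.1 to 158 CPM in NS (median 33.4) and from 20.8 to 37.8 CPM in AK (median 30.9). The cSCC libraries held 7.64, 14.9, 13.7 and 104 CPM. The first 3 were below all of AK, and cSCC 21 was above all AK and all but 2 NS libraries. The log2 fold change was -0.93 for AK vs. NS (SE 0.41, adjusted p = 0.173), -0.58 for cSCC vs. NS (SE 0.76, adjusted p = 0.629) and 0.44 for cSCC vs. AK (SE 0.54, adjusted p = 0.584). From cSCC 18 and cSCC 19 alone it was -2.28 against NS (SE 0.95, adjusted p = 0.130) and, called lower, -1.33 against AK (SE 0.37, adjusted p = 0.0304). Without cSCC 21 alone the value against AK was -1.31 (adjusted p = 0.0137).

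**Figure D4:**
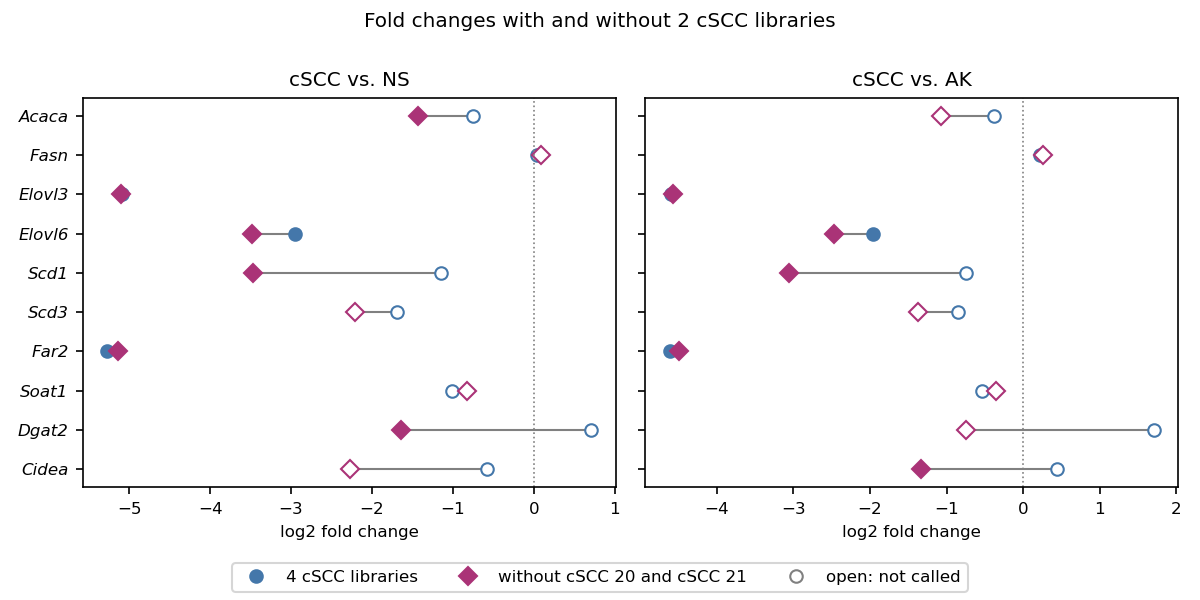
Log2 fold change of each gene in cSCC vs. NS and cSCC vs. AK with the 4 cSCC libraries (circles) and without cSCC 20 and cSCC 21 (diamonds), filled where called. Far2 and Elovl3 barely move, Scd1 moves from -1.14 to -3.47 against NS, and Dgat2 crosses from 0.71 to -1.64.

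In NS, 7 of the 10 genes (Scd1, Scd3, Elovl3, Elovl6, Soat1, Far2 and Cidea) had their highest levels in NS 2 and then NS 1. Fasn was highest in NS 1, and Acaca and Dgat2 in NS 4. NS 1 and NS 2 also had the highest sums of the 14 adipocyte markers in NS, 5247 and 5141 CPM against 722 to 2717 CPM in the 6 others, and the lowest sums of the 9 epidermis markers, 9652 and 9990 CPM against 14645 to 23916 CPM. The sum of 12 other sebaceous genes was 3500.5 CPM in NS 1, 4520 CPM in NS 2 and 3703 CPM in NS 9, above the 5 others. The part of tissue content in these levels was not tested. Over the 16 NS and AK libraries, after subtracting group means from log2(CPM + 1), Pearson's r was 0.92 between Elovl3 and Far2, 0.86 between Elovl3 and Cidea, 0.83 between Elovl3 and Soat1 and 0.81 between Elovl3 and Scd1. Acaca and Dgat2 were not part of this group, with r of -0.17 and -0.28 to Elovl3. Over the 45 pairs r ranged from -0.37 to 0.92 with a median of 0.31, and 32 were above 0. Over all 20 libraries the median was 0.33 with 33 pairs above 0. These values share the libraries and their tissue content and are given as a description.

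**Figure D5:**
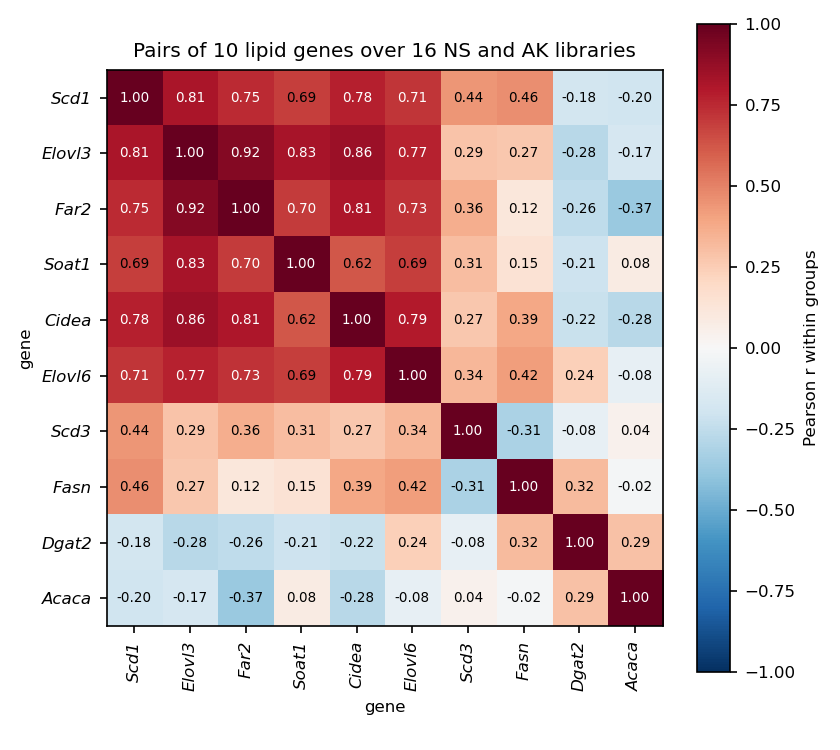
Pearson's r between pairs of the 10 genes over 16 NS and AK libraries, from log2(CPM + 1) with each group's mean subtracted. Scd1, Elovl3, Far2, Soat1, Cidea and Elovl6 form a block with r from 0.62 to 0.92, and Acaca and Dgat2 lie outside it.

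The 10 genes that were not members and most resembled the members' mean pattern within groups over 20 libraries were Cyp2f2 (r = 0.86), Ces4a, Glb1l2, Rbp4, Pon3, Gsdmd, Fzd2, Elovl5, Zc3h11a and Gsto2 (0.79). Over the 16 NS and AK libraries they were Reep5 (r = 0.87), Sod1, Ctsf, Aldh3a2, Marc2, Adcy7, Rgcc, Il7, Decr1 and 1110057K04Rik (0.83). No gene was in both lists. Over the 16 libraries Elovl6 had r = 0.88 and Cidea r = 0.85 with the mean of the other sebaceous genes, and Scd1 had r = 0.90 with the mean of the adipocyte markers, above its r of 0.78 with the sebaceous genes. Far2 had r = 0.69 with the sebaceous genes and 0.50 with the adipocyte markers, and Elovl3 0.74 and 0.66. Scd3, Fasn, Acaca and Soat1 had a higher r with the adipocyte markers, and Dgat2 had 0.24 with the sebaceous genes. Over all 20 libraries r with the sebaceous genes was 0.85 for Elovl3, 0.65 for Far2, 0.51 for Elovl6 and 0.06 for Cidea. With the adipocyte markers Elovl6 then had 0.58 and Cidea 0.36.

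Of the 12 other sebaceous genes, 10 were tested in each comparison, and 2 were called lower in AK vs. NS, 5 in cSCC vs. NS and 5 in cSCC vs. AK, with none called higher. At an unadjusted p under 0.05 by edgeR none was higher either. By limma voom 2 were then higher and 6 lower in AK vs. NS, and 1 higher and 6 lower in cSCC vs. NS. DESeq2 called 1, Fads2, higher in each comparison with cSCC. The median log2 fold changes were -0.50, -1.67 and -1.45. Awat2, a wax ester synthase that uses the alcohols made by Far2, was at 1.75 to 135 CPM in NS and 0 to 12.6 CPM in AK, and was at 0 in all 4 cSCC libraries. With the limit of 3 counts in the smallest cSCC library, 3.41 CPM, this is at least 11.6-fold lower than the NS mean of 39.5 CPM and at least 2.12-fold lower than the AK mean of 7.24 CPM. The first bound rests on NS 2 at 135 CPM, without which, a check chosen after seeing the data, the NS mean was 25.8 CPM and the bound 7.55-fold, and NS 7, at 1.75 CPM, was under the limit itself. Awat2 was also called lower in AK than in NS by edgeR (log2 fold change -2.41, SE 0.65, adjusted p = 0.0387) and by DESeq2, but not by limma voom. In place of the calls of edgeR, limma voom called Apoc1 and Krt79 lower in AK vs. NS and Apoc1, Prdm1 and Krt79 in cSCC vs. NS, without Awat1, Awat2 and Aldh3b2. Awat1, of the same acyltransferase family, was at 12.5, 1.76, 0 and 0 CPM in cSCC and at 25.2 CPM or more in all NS and AK libraries (cSCC vs. NS -4.65, adjusted p = 0.00795). Krt79, a keratin of the sebaceous duct, fell from a median of 776 CPM in NS to 438 CPM in AK (-1.26, adjusted p = 0.0190) and to 74.3, 5.27, 75.1 and 1.82 CPM in cSCC (against NS -4.67, adjusted p = 0.00486). Prdm1 and Aldh3b2 were the others called lower against NS, at -1.79 and -1.13, and Prdm1 (-1.78) and Mgst1 (-1.30) against AK. Without cSCC 20 and cSCC 21, 4 of 11 were called lower than in NS (Awat1, Awat2, Krt79 and Prdm1) and 6 of 10 than in AK, with Mgst1 and Pparg added to these 4.

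Of 19 other genes of fatty acid synthesis, 16 were tested, and none was called for AK vs. NS by edgeR, DESeq2 or limma voom, with 3 lower and 0 higher at an unadjusted p under 0.05. For cSCC vs. NS 5 were called lower: Elovl7 (-2.46), Elovl4 (-2.06), the NADPH-yielding malic enzyme Me1 (-1.67), Elovl1 (-1.25) and Acly (-0.83), the enzyme that supplies acetyl-CoA. Against AK 4 were lower (Elovl7, Elovl4, Me1 and Acly) and 2 higher (Acsl1 and the citrate carrier Slc25a1). Of the 5 genes lower than in NS, Me1 alone was also called against NS without cSCC 20 and cSCC 21 (-1.93, adjusted p = 0.00738), beside Acsl1 (-1.79), which had been at 1136 CPM in cSCC 21. The values of the other 4 were then -1.75 for Elovl7 (adjusted p = 0.0656), -1.54 for Elovl4 (adjusted p = 0.0812), -0.97 for Elovl1 (adjusted p = 0.199) and -0.94 for Acly (adjusted p = 0.0608). By limma voom with all libraries, Elovl4, Me1 and Elovl7 were called lower against NS. The median of the list was -0.24 for cSCC vs. NS, and -0.82 without both.

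Of 25 other genes of esterification and lipid droplets, 19 were tested for cSCC vs. NS, where Gpam (3.12), Pnpla2 (3.11), Agpat2 (1.80) and Plin3 (1.69) were called higher and Awat1 and Awat2, which are also in the sebaceous list, lower. All 4 had their highest level in cSCC 21, for example Pnpla2, the adipose triglyceride lipase, at 1.39, 17.6, 51.2 and 311 CPM in cSCC 18, 19, 20 and 21. Without cSCC 20 and cSCC 21 none of the list was called higher and 6 were called lower, and at an unadjusted p under 0.05 2 were higher. Against AK 6 were higher and 2 lower with all libraries, and 2 and 5 without both. By limma voom 0 of the list were called for cSCC vs. NS, with 4 higher and 3 lower at an unadjusted p under 0.05. For AK vs. NS 1 of 18 was called by edgeR, Awat2, with 6 lower and 0 higher at an unadjusted p under 0.05, while DESeq2 called 4 lower (Awat2, Lipe, Pnpla2 and Plin4) and limma voom 0.

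Among 18 regulators of lipid genes, Cebpa, a factor of sebocyte and adipocyte differentiation, was called lower in cSCC than in NS (-2.23, SE 0.51, adjusted p = 0.00920) and than in AK (-1.57, adjusted p = 0.0267), and also without cSCC 20 and cSCC 21 (-2.34, adjusted p = 0.00487). It was at 30.6, 28.6, 63.7 and 5.46 CPM in cSCC and at 106 CPM or more in NS. In AK it was at 42.0 to 133 CPM, a range that held cSCC 20. Srebf1, the regulator of fatty acid synthesis genes, overlapped between groups at 14.1 to 23.1 CPM in NS, 7.57 to 23.5 CPM in AK and 9.72, 16.7, 17.1 and 15.2 CPM in cSCC. Pparg was at 2.08, 0, 34.1 and 15.1 CPM in cSCC and at 1.35 to 68.7 CPM in NS. Nr1h3, Prkaa2 and Nr1h2 were called higher against AK, each highest in cSCC 21, and 0 of 16 were higher without both (1 at an unadjusted p under 0.05). In that fit 3 were called lower against AK by edgeR. They were Cebpa (-1.67, adjusted p = 0.0101), Pparg (-4.23, adjusted p = 0.0251) and Thrsp (-5.70, adjusted p = 0.0238). No regulator was called for AK vs. NS by edgeR, with 2 lower at an unadjusted p under 0.05 (Cebpa and Srebf2), and DESeq2 called 2 and limma voom none. Of 14 cholesterol synthesis genes, 1 was called lower in AK vs. NS (Dhcr7, -0.92).

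None of the 10 tested adipocyte markers was called for cSCC vs. NS with all libraries (1 higher at an unadjusted p under 0.05, Lpl), and DESeq2 and limma voom called none. For AK vs. NS edgeR called none either, with 2 lower at an unadjusted p under 0.05 (Lipe and Plin4), which DESeq2 called. Without cSCC 20 and cSCC 21, 7 of 11 were called lower, with a median log2 fold change of -5.20, and 8 of 10 against AK. Adipoq was then at 0 and 2.20 CPM in cSCC 18 and 19 against 8.999 to 239 CPM in NS. The part of adipocyte content in the levels of the 10 lipid genes was not tested. Of 9 epidermis markers, 4 were called lower in cSCC vs. NS (Flg, Krt10, Krt1 and Dsg1a), and 1, Dsg3, higher, or 3 and 1 without both libraries. Of the 7 skeletal muscle markers 2 were lower, and of 6 leukocyte markers 1, Cd74, was higher. Without both libraries 0 of these markers were called, with 3 skeletal muscle markers lower and Cd74 higher (1.29, adjusted p = 0.106) at an unadjusted p under 0.05.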

How the data were processed

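By the methods, reads were trimmed and aligned to GRCm38 (HISAT2), and StringTie was used for quantification. The authors deposited 1 table of raw counts by gene symbol, without normalization. The submitters' processing notes name Trimmomatic 0.36, HISAT2 2.0.5, featureCounts 1.5.2 and the builds hg19 and mm9 instead, and the step that made the counts and its use of strand are not given in the sources used here. The notes state daily irradiation, the methods fewer days a week. The genes examined and all gene lists were chosen with earlier results of these data known.

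Library totals ranged from 775750 to 14055206 counts, and 18160 of 22090 genes had a count. The deposited counts were turned into CPM with TMM factors of all 20 samples. Each pair of groups was fitted on the samples compared with edgeR 4.0.16 (quasi-likelihood test, filterByExpr) in R 4.3.3, with Benjamini-Hochberg adjustment over all genes tested. All 10 genes passed this filter. Fold changes are those of the fit, with SE and 95% intervals from the test. Within groups, no pair of samples had the same counts within sampling noise (62 pairs, smallest chi-square per degree of freedom 11.3). Alternatives were library size alone, upper quartile factors, DESeq2 1.42.0, limma voom 3.58.1 with sample weights, no filter, at least 10 counts in every sample, all 20 samples in 1 fit, no fold limit, the study's unadjusted rule, and leaving out samples. On simulated data with a log2 fold change of 2, edgeR called 93.5% of 185 changed genes in the AK vs. NS design (11484 genes, 5 false calls), 46.1% of 193 in that of cSCC vs. NS (11869 genes, 3 false calls) and 53.5% of 198 in that of cSCC vs. AK (11796 genes, 4 false calls). From each list, up to 4 called genes with the largest change are named, or every called gene where 5 or fewer were called, and genes outside this rule (Srebf1, Pparg, Acsl1 and those given with single library values) were named after their values were seen. Exon lengths and positions are from GENCODE M21, GRCm38. The cholesterol synthesis list is not reported here for the comparisons with cSCC. Limits at 3 counts cover counting error only.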

Additional observations from a re-analysis of the deposited data

Results flagged for a closer look

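In 3 of the 30 combinations of a gene and a group, 1 library lay further from the others than Dixon's 95% limit allows on log2(CPM + 1), where chance alone gives about 1 in 20. Fasn in AK was lowest in AK 16, at 12.6 CPM against a group median of 40.4 CPM (gap over range 0.562). Soat1 in NS was highest in NS 2, at 236 CPM against a median of 63.8 CPM (0.529). Dgat2 in cSCC was highest in cSCC 21, at 543 CPM against a median of 38.4 CPM (0.899), in the library that also held 48296 CPM of heart genes. What part heart RNA has in its Dgat2 level was not tested.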

How the results depend on the processing

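No paired analysis was possible because replicate numbers are not shared between groups and the labels tie no sample to a mouse. For AK vs. NS, the 2 called genes fell to 0 without the filter on low counts (adjusted p of Elovl6 0.0598 and of Dgat2 0.0536) and to 0 in a single fit of all 20 samples (0.254 and 0.378), and to between 0 and 2 on leaving out a library, being 0 for NS 1, NS 2, NS 4, NS 5 and AK 11 to AK 17. In every such setting 0 were higher. The cause was not tested. The other settings kept the 2 calls.

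For cSCC vs. NS, the 3 called genes were 1 with limma voom (Elovl6, with Elovl3 at an adjusted p of 0.0630 and Far2 at 0.0997), 0 with at least 10 counts in every sample, a filter that left 5 of the 10 genes and removed all 3, 6 by the study's rule, 6 without cSCC 20 and cSCC 21, and between 3 and 6 on leaving out a library, the 6 being without cSCC 20. For cSCC vs. AK, the 3 calls were 1 with at least 10 counts (Dgat2, higher, at 2.01), 5 without cSCC 20 and cSCC 21, and between 3 and 5 on leaving out a library, the 5 being without cSCC 20. They include Dgat2, called higher in 1 fit of all samples (1.45) and without cSCC 18 (1.86), 19 (2.05) or 20 (2.02). Limma voom called 540 of all 12097 genes lower in cSCC vs. NS. For the study's rule, the other filters, 1 fit of all samples and single left-out libraries, no share of all genes is given here. The counts of members called in those settings therefore cannot be set beside one.

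Log2 fold changes changed sign for Scd1 in AK vs. NS with limma voom (0.051), and in cSCC vs. NS for Fasn with library size alone (-0.14), no filter (-0.0071), 1 fit of all samples (-0.034) and the study's rule (-0.058), and for Dgat2 with limma voom (-1.24), the study's rule (-0.55) and without cSCC 20 and cSCC 21 (-1.64). In cSCC vs. AK they changed for Dgat2 with limma voom (-0.23) and without both libraries (-0.75), and for Cidea with limma voom (-0.68), the study's rule (-0.53) and without both (-1.33). On leaving out single libraries the signs changed within -0.25 to 0.20 (Fasn) and -1.54 to 1.05 (Dgat2) in cSCC vs. NS, and within -0.071 to 0.35 (Fasn), -0.72 to 2.05 (Dgat2) and -1.31 to 0.70 (Cidea) in cSCC vs. AK. The cause was not tested. In the settings that left out no single library, 220 of the members' fold changes kept their direction and call, 9 gained and 6 lost a call, and 13 changed sign.

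Of the 4 cSCC libraries, 2 held genes of other organs and 1 had 775750 counts. The simulation, with the library sizes and dispersions of the data, called 46.1% of changes of log2 2 against NS. It drew each library independently around 1 mean per gene, and so modelled neither single libraries with RNA of other organs nor shared mice. Levels of Elovl3, Far2 and Scd3 in cSCC rest on at most 10 counts a library. By the study's methods each UVR mouse gave NS, AK and cSCC pieces. Mice are thus shared within AK and between the groups, which the test ignores.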
